A study of Mus musculus with 6 samples.

Results

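Tubulin is the building block of microtubules, and mammals carry many tubulin genes, called isotypes, that code for closely similar proteins. The mRNAs of 10 mouse isotypes were followed here: the β-tubulins Tubb2a, Tubb2b, Tubb3, Tubb4b, Tubb5 and Tubb6, the α-tubulins Tuba1a, Tuba1b and Tuba1c, and the γ-tubulin Tubg1. They were taken by gene symbol from an RNA-sequencing table of 16880 genes, and all 10 symbols were found. The set was chosen by measured values of the same comparison that is described below, so the members' levels and fold changes are a description and carry no test. Mouse cells were kept with IL-1β at 10 ng/mL in both groups, alone in 3 libraries and with added NP-G2-044 at 10 μmol/L in the other 3, and the methods give 24 h of treatment. IL-1β is a cytokine of inflammation, and NP-G2-044 inhibits FSCN1 (fascin), which bundles actin filaments. The methods of the study also name a DMSO group, which has no library in the data used here. The labels name 1 cell line, ATDC5, a chondrogenic line, where the text of the study speaks of mouse chondrocytes, and 1 label of the inhibitor-treated samples gives NP-G2-047 where their titles give NP-G2-044. The question set to the isotypes is how much tubulin mRNA the cells held with and without the inhibitor, and which isotypes made it up.

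α-Tubulin and β-tubulin form a dimer, dimers add to the ends of microtubules, and γ-tubulin sits in ring complexes from which microtubules start. Cells hold the amount of α- and β-tubulin mRNA in balance with the amount of free dimer: when free dimer rises, the factor TTC5 recognizes the first amino acids of a tubulin chain as it leaves the ribosome, and the mRNA being translated is degraded. Isotypes differ mainly in their last amino acids and in where they are made. TUBB3 is widely used as a marker of neurons, TUBB5 and TUBB4B are made in most dividing cells, and TUBA1A, TUBA1B and TUBA1C are the common α-tubulins.

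The start of the coding sequence is shown first because TTC5 reads the peptide that it codes for. The first 4 codons are in capitals and the next 4 in lower case, 5′ to 3′ on the coding strand, from the GENCODE vM21 transcripts. The capitals lie on GRCm38 at chr8:123411606-123411617 for Tubb3, chr2:25224579-25224590 for Tubb4b, chr17:35838042-35838053 for Tubb5 and chr13:34077918-34077929 for Tubb2a. In Tuba1b the first codon lies in an exon of its own, at chr15:98934333-98934335, and the next 3 lie at chr15:98933187-98933195. Those of Tubg1 lie at chr11:101120194-101120205.
Tubb3: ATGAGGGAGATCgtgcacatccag
Tubb4b: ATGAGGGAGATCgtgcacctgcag
Tubb5: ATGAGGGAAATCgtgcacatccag
Tubb2a: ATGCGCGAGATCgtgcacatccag
Tuba1b: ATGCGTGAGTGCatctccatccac
Tubg1: ATGCCGAGAGAAatcatcacccta
The capitals of the β-tubulin genes shown all code for the same 4 amino acids. Those of Tubb3 and Tubb4b are also letter for letter the same. The levels of these 2 mRNAs lay on opposite sides, Tubb3 higher and Tubb4b lower with NP-G2-044. The part of TTC5 in these differences was not tested. Tubg1 opens with other letters than the α- and β-tubulin genes.

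Promoters were available for 7 of the 10 genes in RefSeq (GRCm38.p6). Those of Tubb3, Tubb4b and Tubb5 are shown because they set the gene that was higher with the inhibitor beside a gene with a large difference in the other direction and the most abundant β-tubulin gene. Each runs from 250 bases before to 50 bases after the annotated start, 5′ to 3′ on the strand of the gene, at chr8:123411303-123411602, chr2:25224653-25224952 and chr17:35838252-35838551. For Tubb3 the 2 annotations differ. Its GENCODE gene starts at chr8:123411424, inside the window and before the RefSeq start, so part of the window before that start lies within the GENCODE gene. Capitals mark CCAAT (or ATTGG on the other strand), GGGCGG (or CCGCCC) and TATAAA (or TTTATA), and no matches overlap.
Tubb3: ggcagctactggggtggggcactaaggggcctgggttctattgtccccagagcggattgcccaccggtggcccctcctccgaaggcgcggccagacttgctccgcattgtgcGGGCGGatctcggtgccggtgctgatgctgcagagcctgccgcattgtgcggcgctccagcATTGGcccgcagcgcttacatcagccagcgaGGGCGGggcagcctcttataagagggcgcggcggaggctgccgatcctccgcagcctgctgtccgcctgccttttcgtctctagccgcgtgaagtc
Tubb4b: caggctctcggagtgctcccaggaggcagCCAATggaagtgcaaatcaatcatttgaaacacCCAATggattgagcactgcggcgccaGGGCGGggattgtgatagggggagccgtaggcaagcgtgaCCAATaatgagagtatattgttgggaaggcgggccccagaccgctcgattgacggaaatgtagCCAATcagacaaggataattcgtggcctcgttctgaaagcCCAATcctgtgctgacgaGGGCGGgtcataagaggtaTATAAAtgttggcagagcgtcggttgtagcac
Tubb5: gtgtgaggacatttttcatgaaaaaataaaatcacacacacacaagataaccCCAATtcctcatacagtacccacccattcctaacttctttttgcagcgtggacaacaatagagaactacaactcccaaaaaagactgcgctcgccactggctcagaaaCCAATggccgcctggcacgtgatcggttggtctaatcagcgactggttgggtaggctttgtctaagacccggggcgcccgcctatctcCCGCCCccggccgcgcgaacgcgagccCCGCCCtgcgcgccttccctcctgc
CCAAT stands 5 times in the Tubb4b window, 2 times in that of Tubb5 and 1 time in that of Tubb3. Of the 12355 promoters available for tested genes, 38.49% hold it at least once. These promoters belong to 9635 of the 11983 tested genes, so some genes count more than once and others not at all. GGGCGG stands 2 times in each of the 3 windows, and 62.7% of those promoters hold it. TATAAA stands 1 time in the Tubb4b window, at position 19 after the annotated start, and not in the windows of Tubb3 and Tubb5. It is held by 6.97% of those promoters. The windows of Tubb2a and Tuba1b hold CCAAT 0 times and those of Tuba1a and Tuba1c hold it 1 time. All of these genes were lower with the inhibitor. The part of these letters in the differences in level was not tested. The Tubb2a window holds TATAAA 1 time, at position −29, before the annotated start. A match is a run of letters and no evidence of binding.

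The isotypes differ in how far reads can be told apart, which limits the values that follow. Of all 100-base stretches of the Tuba1b transcript, 72.99% also occur in a transcript of another gene, and the share is 65.85% for Tuba1a and 53.43% for Tuba1c. The coding sequences of Tuba1a and Tuba1b are 98.3% identical, and those of Tubb2a and Tubb2b are 96.48% identical. Tubb2a shares 36.93% of its stretches, mostly with Tubb2b, and Tubb4b shares 30.62%, mostly with the pseudogene Tubb4b-ps1. For Tubg1 the share is 4.11%, all with Tubg2. Tubb3, Tubb5 and Tubb6 share no 100-base stretch, so their reads of that length can be assigned to 1 gene.

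**Figure D1:**
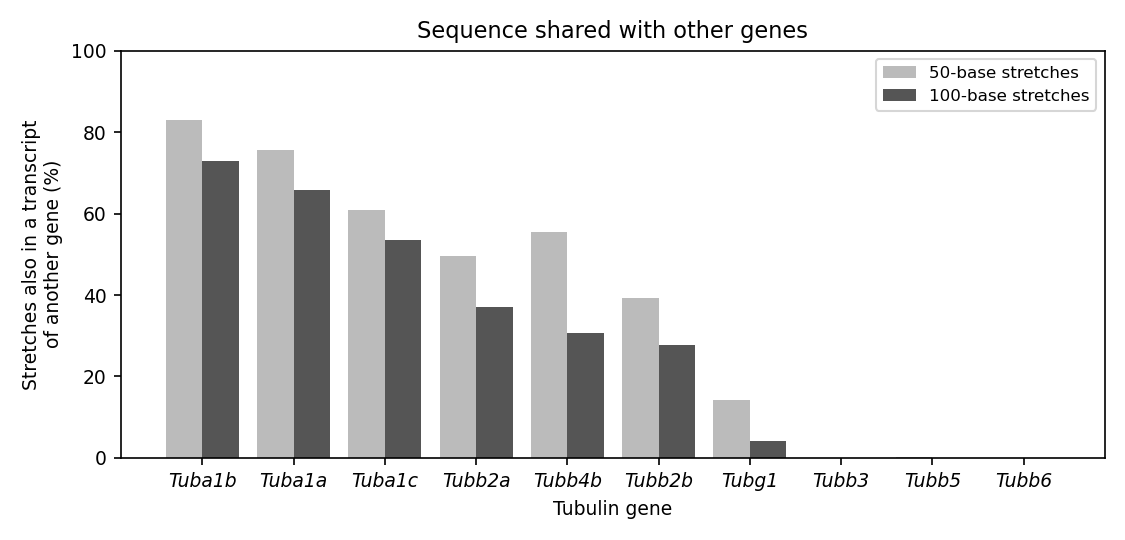
Share of all 50-base (light bars) and 100-base (dark bars) stretches of 1 transcript per tubulin gene that also occur in a transcript of another gene, in percent. The 3 α-tubulin genes stand highest at 53.43% to 72.99% of 100-base stretches, and Tubb3, Tubb5 and Tubb6 stand at 0.

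The deposited counts are estimated read counts that need not be whole, and those of Tuba1a, Tuba1b and Tuba1c were not whole in 6 of 6 libraries, those of Tubg1 in 5 of 6, those of Tubb2a and Tubb2b in 1 of 6, and those of Tubb3, Tubb4b, Tubb5 and Tubb6 in 0 of 6. This does not follow the shared sequence gene by gene, since Tubg1 shares little and Tubb4b shares more. No source used here gives how reads that fit several α-tubulin genes were divided, so the 3 α-tubulin values are uncertain one by one.

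Levels are given in TPM, the authors' transcript abundance scaled for depth and gene length so that genes can be compared within a library. Differences are given as the log2 fold change of the group with NP-G2-044 over the group with IL-1β alone, with its standard error, fitted by edgeR to the counts of all 11983 genes that passed a filter on low counts. The fold given for a gene is this fitted value on a linear scale, so it comes from the counts and can differ by a few percent from the ratio of the mean TPM printed beside it. Of the 10 isotypes, 9 passed the filter and Tubb2b did not. With the inhibitor 8 isotypes stood lower and 1, Tubb3, stood higher. The 9 log2 fold changes ran from −1.35 to 1.93 with a median of −0.85, against a median of 0.00 over all tested genes. In these bulk samples less tubulin RNA per cell and fewer cells of a type rich in it cannot be told apart.

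Calls are frequent in these libraries, and that background belongs beside the counts. In the quasi-likelihood test of edgeR, with p adjusted by Benjamini-Hochberg, 80% of all tested genes had an adjusted p below 0.05, 40.2% higher and 39.8% lower with NP-G2-044. By that rule 1 isotype was called higher and 8 lower. A log2 fold change above 1 in size was also met by 16.6% of all tested genes, 6.48% higher and 10.1% lower, and by 1 isotype higher (Tubb3) and 2 lower (Tubb2a and Tubb4b). The 3 libraries of each group did not overlap for 80.8% of all tested genes, 40.7% higher and 40.1% lower, and for 1 isotype higher and 8 lower. Since the set was chosen on these values, nothing is read from its counts.

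Tubb5, the most abundant β-tubulin mRNA in both groups (Entrez gene 22154, chr17:35833921-35838306 on GRCm38), had 1275, 1262 and 1273 TPM with IL-1β alone. With NP-G2-044 it had 696, 681 and 677 TPM. The 3 libraries of each group lay close together and the groups did not overlap, with means of 1270.4 ± 6.87 and 685 ± 10.3 TPM (SD, n = 3). In the fit to the counts Tubb5 was 1.82-fold lower with the inhibitor, a log2 fold change of −0.86 with a standard error of 0.0260. It rests on the most reads of all isotypes, 31224 to 32495 per IL-1β library and 18446 to 18534 per library with the inhibitor.

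Tubb4b, the next β-tubulin mRNA in level (Entrez gene 227613, chr2:25222160-25224702), had 545, 550.5 and 561 TPM with IL-1β and 226, 219 and 225 TPM with NP-G2-044. Every IL-1β library lay far above every library with the inhibitor. The means were 552 ± 8.09 and 223 ± 4.2 TPM (SD, n = 3). The fitted level was 2.42-fold lower with the inhibitor, a log2 fold change of −1.28 with a standard error of 0.0287. The exons of Tubb4b overlap 121 bases of Fam166a on the other strand, and no source used here says whether the counting used strand.

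Tubb2a, which codes for a β-tubulin abundant in brain (Entrez gene 22151, chr13:34074274-34078007), had 107, 101 and 103 TPM with IL-1β and 41.9, 39.7 and 38.25 TPM with NP-G2-044. Its reads were 1531, 1407 and 1464 against 627, 607 and 585, again with no overlap. The means were 104 ± 2.86 and 39.96 ± 1.85 TPM (SD, n = 3). From the fit it was 2.54-fold lower, the lowest log2 fold change of the 9 isotypes at −1.35 with a standard error of 0.0452. Its neighbour and near copy Tubb2b (Entrez gene 73710) lies 48740 bases away and had 0, 0 and 0 reads with IL-1β and 0, 1 and 0 with the inhibitor. The limit that a count of 0 allows, 3 reads in a library, is 0.170 to 0.181 CPM (reads scaled to the library total) in the libraries with no read, so no fold is given. With the reads of Tubb2a and Tubb2b summed, the log2 fold change stayed at −1.35.

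Tubb6, a broadly made and more distant β-tubulin (Entrez gene 67951), had 147, 154 and 144 TPM with IL-1β and 99.2, 101.5 and 102.1 TPM with NP-G2-044. All IL-1β libraries lay above all libraries with the inhibitor. The means were 148 ± 5.13 and 101 ± 1.52 TPM (SD, n = 3). The fit put Tubb6 1.44-fold lower, a log2 fold change of −0.53 with a standard error of 0.0347. That was the smallest difference among the 4 β-tubulin mRNAs that stood lower.

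Tubb3 (Entrez gene 22152, chr8:123411424-123422015) went the other way. Its reads were 69, 82 and 81 with IL-1β alone and 295, 298 and 337 with NP-G2-044, or 4.38, 5.36 and 5.19 TPM against 17.9, 17.7 and 20.04 TPM. The lowest library with the inhibitor held more than 3 times the reads of the highest IL-1β library. Its means were 4.98 ± 0.524 and 18.6 ± 1.27 TPM (SD, n = 3). The fit to its counts put it 3.81-fold higher, with a log2 fold change of 1.93 and a standard error of 0.102. This standard error is the widest of the 9 isotypes. Even with the inhibitor, Tubb3 stood at rank 6261 to 6654 among the 16880 genes, from rank 9447 to 9677 with IL-1β.

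Since TUBB3 is used to mark neurons, a list of 10 neuronal markers was read beside it. Of these, 5 were in the data analysed here. Their summed level was 10.7 to 12.2 TPM with IL-1β and 4.82 to 5.39 TPM with NP-G2-044, most of it Map2, and Stmn2 had no read in any library. Map2 carries the lower sum, at a mean of 9.6 TPM with IL-1β against 3.28 TPM with the inhibitor. Syp stood at 1.95 against 1.77 TPM, and Syt1 and Elavl4 had few reads, with Syt1 lower and Elavl4 higher. Any link of these markers to the level of Tubb3 was not tested.

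Tuba1b, the most abundant isotype in every library (Entrez gene 22143, chr15:98931425-98934565), had 1581, 1619 and 1557 TPM with IL-1β and 869.55, 842 and 872 TPM with NP-G2-044. The groups lay apart by far more than their spread, at 1586 ± 31.5 against 861 ± 16.8 TPM (SD, n = 3). By the fit it was 1.80-fold lower with the inhibitor, with a log2 fold change of −0.85 and a standard error of 0.0268. Among all genes it went from rank 96 to 102 with IL-1β to rank 139 to 144.

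Tuba1c (Entrez gene 22146, chr15:99029891-99038110) had 942, 931 and 976 TPM with IL-1β and 456, 489.9 and 488 TPM with NP-G2-044. Its means were 949.7 ± 23.6 and 478 ± 18.8 TPM (SD, n = 3). By the fit Tuba1c was 1.94-fold lower, the lowest of the α-tubulin log2 fold changes at −0.96 with a standard error of 0.0292. The groups did not overlap.

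Tuba1a (Entrez gene 22142, chr15:98949837-98953703) had 922, 962 and 931 TPM with IL-1β and 647, 674 and 679 TPM with NP-G2-044. The means were 938 ± 20.8 and 667 ± 17.6 TPM (SD, n = 3), and the fit put Tuba1a 1.38-fold lower, with a log2 fold change of −0.46 and a standard error of 0.0276. It thus differed least among the 3 α-tubulin mRNAs, again without overlap between the groups. Tuba1a and Tuba1b lie 15271 bases apart, and both overlap exons of Gm49450 on the same strand, by 473 and 426 bases. With the reads of the 3 α-tubulin genes summed, which needs no division between them, the log2 fold change was −0.78 with a standard error of 0.0258. No other division of the shared reads was tested.

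Tubg1, the main γ-tubulin gene (Entrez gene 103733, chr11:101119938-101126419), differed least. It had 166, 165 and 167 TPM with IL-1β and 146, 148 and 138 TPM with NP-G2-044, and the groups did not overlap. The means were 166 ± 0.790 and 144 ± 5.44 TPM (SD, n = 3). The fitted level was 1.12-fold lower, with a log2 fold change of −0.16 and a standard error of 0.0332.

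**Figure D2:**
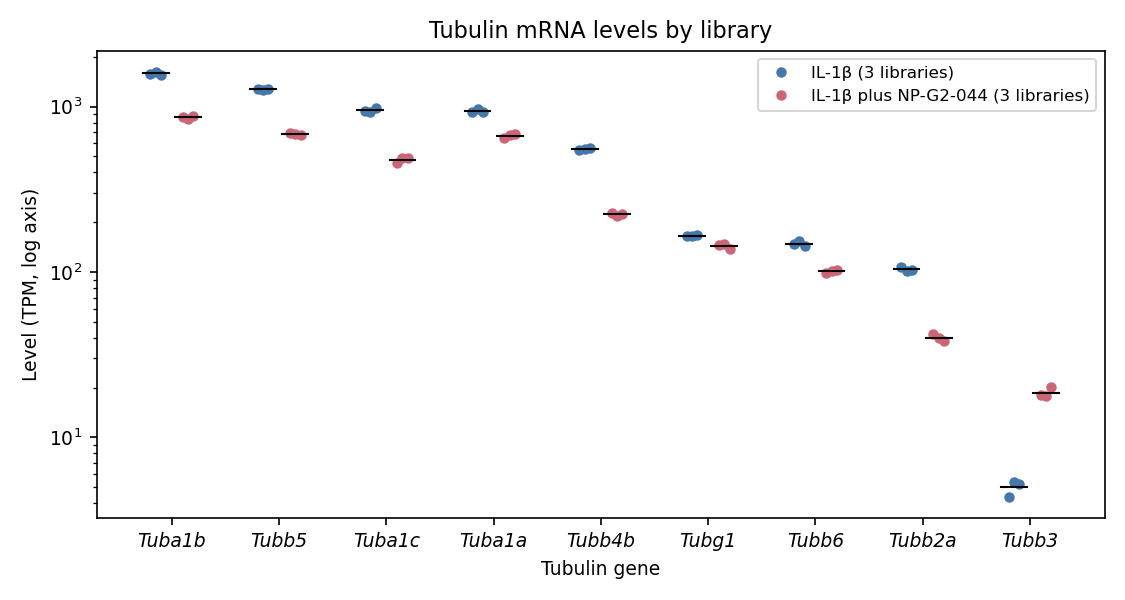
Level of 9 tubulin mRNAs in TPM on a log axis, 1 point per library and a line at the mean of each group of 3, ordered by the level with IL-1β. The points of IL-1β plus NP-G2-044 lie below those of IL-1β for 8 genes and above them for Tubb3, at 4.98 and 18.6 TPM. Tubb2b, with 1 read in all 6 libraries, is not drawn.

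Ordered by level, the isotypes kept most of their places. With IL-1β the order was Tuba1b, Tubb5, Tuba1c, Tuba1a, Tubb4b, Tubg1, Tubb6, Tubb2a, Tubb3 and Tubb2b. Tuba1c and Tuba1a, at 949.7 and 938 TPM, had overlapping libraries, and all other neighbours in the order did not overlap. With NP-G2-044, Tuba1a stood above Tuba1c, and it overlapped with Tubb5, at 667 and 685 TPM. The other places were the same, so Tubb3 stayed the lowest isotype with more than 1 read, at 18.6 TPM below Tubb2a at 39.96 TPM.

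Added together, the 10 isotypes made up 5689, 5751 and 5718 TPM with IL-1β and 3200.4, 3212 and 3240.2 TPM with NP-G2-044. The summed tubulin level was 1.78-fold lower with the inhibitor, a log2 ratio of −0.83, and the share of all TPM that it took went from 0.572% to 0.322%. The α-tubulin sum was 3474 ± 34.8 against 2006 ± 33.6 TPM (SD, n = 3), 1.73-fold lower. The β-tubulin sum was 2079.6 ± 6.92 against 1067 ± 12.4 TPM (SD, n = 3), 1.95-fold lower. The α and β sums were thus both lower, the β sum by more.

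As the sums differed by unequal folds, the ratio of α- to β-tubulin mRNA also differed. Its values were 1.66, 1.69 and 1.66 with IL-1β alone against 1.82, 1.89 and 1.92 with NP-G2-044. The groups did not overlap, and the mean of 1.88 ± 0.0499 was 1.13 times that of 1.67 ± 0.0203 (SD, n = 3).

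The make-up of the tubulin pool, each isotype as a percent of the summed TPM, is given next. Tuba1a took 16.4% ± 0.278 with IL-1β and 20.7% ± 0.444 with NP-G2-044 (SD, n = 3), a difference of 4.31 percentage points and the largest gain. Tubg1 took 2.90% and then 4.48%, Tubb6 took 2.59% and then 3.14%, and Tubb3 took 0.0870% and then 0.577%. Tuba1a, Tubg1 and Tubb6 were lower in level with the inhibitor and larger in share, since a share is relative to a sum that was lower by more. The share of Tubb3 was 6.63 times as large with the inhibitor and still below 1% of the pool.

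The largest loss of share was that of Tubb4b, from 9.65% ± 0.135 to 6.94% ± 0.133 (SD, n = 3). Tuba1c went from 16.6% to 14.9%, Tuba1b from 27.7% to 26.8%, Tubb5 from 22.2% to 21.3% and Tubb2a from 1.81% to 1.24%. For each of these 9 isotypes the shares of TPM did not overlap between the groups. The levels of 80.8% of all tested genes did not overlap either, and the set was chosen on this comparison, so nothing is read from that count. The gains in share added up to 6.92 percentage points. As a share of summed reads, which are not scaled for length, Tuba1b overlapped between the groups, and its difference was −0.596 points where it was −0.957 points in TPM.

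Within the β-tubulins alone, Tubb5 took 61.1% with IL-1β and 64.1% with NP-G2-044, although its level was 1.82-fold lower. Tubb4b took 26.6% and then 20.9%, Tubb6 took 7.14% and then 9.46%, Tubb2a took 4.98% and then 3.74%, and Tubb3 took 0.239% and then 1.74%. Within the α-tubulins, Tuba1a took 27.0% and then 33.2%, Tuba1b took 45.6% and then 42.9%, and Tuba1c took 27.3% and then 23.8%. The shift among the α-tubulins carries the doubt about shared reads stated for Tuba1a. The levels of Tubb3, Tubb5 and Tubb6 do not carry it. Their shares rest on sums that include Tubb4b and Tubb2a, which share 30.62% and 36.93% of their 100-base stretches with other genes.

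**Figure D3:**
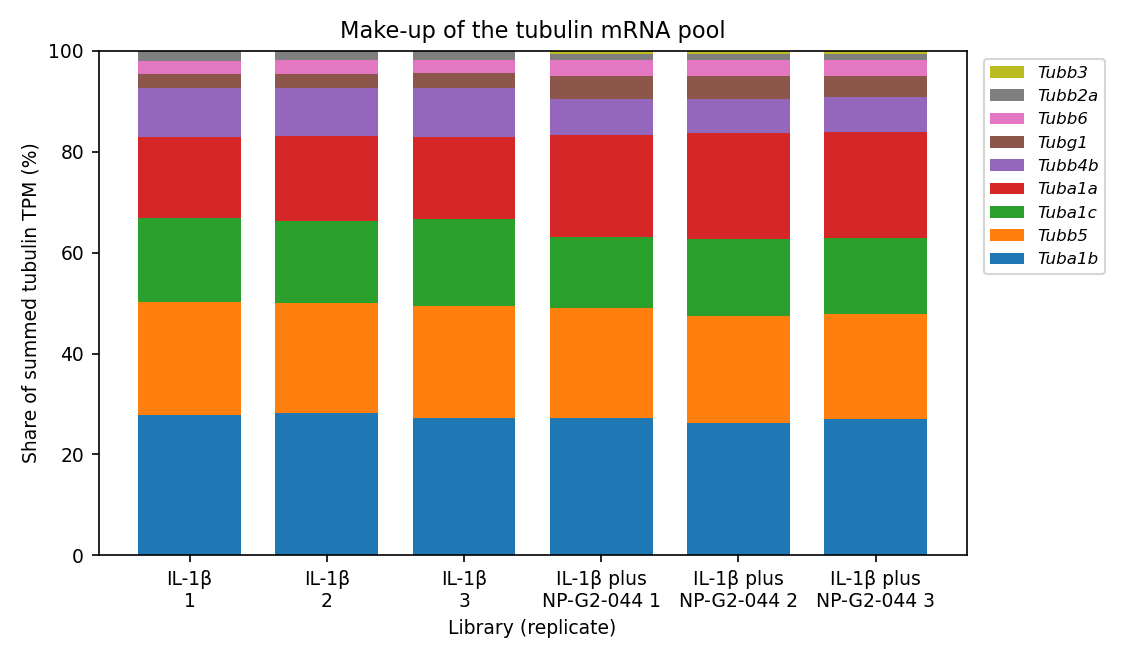
Share of each tubulin isotype in the summed TPM of the 10 isotypes, in percent, with 1 stacked bar per library. Within each group the 3 bars look alike, and with NP-G2-044 the Tuba1a band is wider (20.7% against 16.4%) and the Tubb4b band narrower (6.94% against 9.65%).

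The tubulin genes outside the set were tested in the same fit. Of 10 such genes, 4 passed the filter on low counts, and 6 (Tuba3a, Tuba3b, Tuba8, Tubal3, Tubb1 and Tubb4a) had 0 to 4 reads per library and were not tested. Tuba4a, an α-tubulin gene, fell from 97.8 ± 1.70 to 75.2 ± 3.58 TPM (SD, n = 3), which is −0.34 on the log2 scale (standard error 0.0366, adjusted p = 3.16e-12 in edgeR's test). Tubd1 and Tube1, which code for the δ- and ε-tubulins of centrioles, fell by 0.68 and 0.75 on the log2 scale (standard errors 0.0808 and 0.0761, adjusted p = 7.57e-11 and 6.56e-13 in edgeR's test). They are rare, at 17.2 and 12.8 TPM with IL-1β and 10.5 and 7.45 TPM with NP-G2-044.

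Tubg2, the second γ-tubulin gene, had 12, 17 and 15 reads with IL-1β and 26, 20 and 27 reads with NP-G2-044. It rose by 0.65 on the log2 scale (standard error 0.271, adjusted p = 0.0251 in edgeR's test). This direction is opposite to that of Tubg1, with which it shares sequence, and it rests on few reads. Adding all 10 of these genes to the 10 isotypes gave a total of 5848 TPM against 3312 TPM, so the 10 isotypes hold most tubulin mRNA in both groups.

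**Figure D4:**
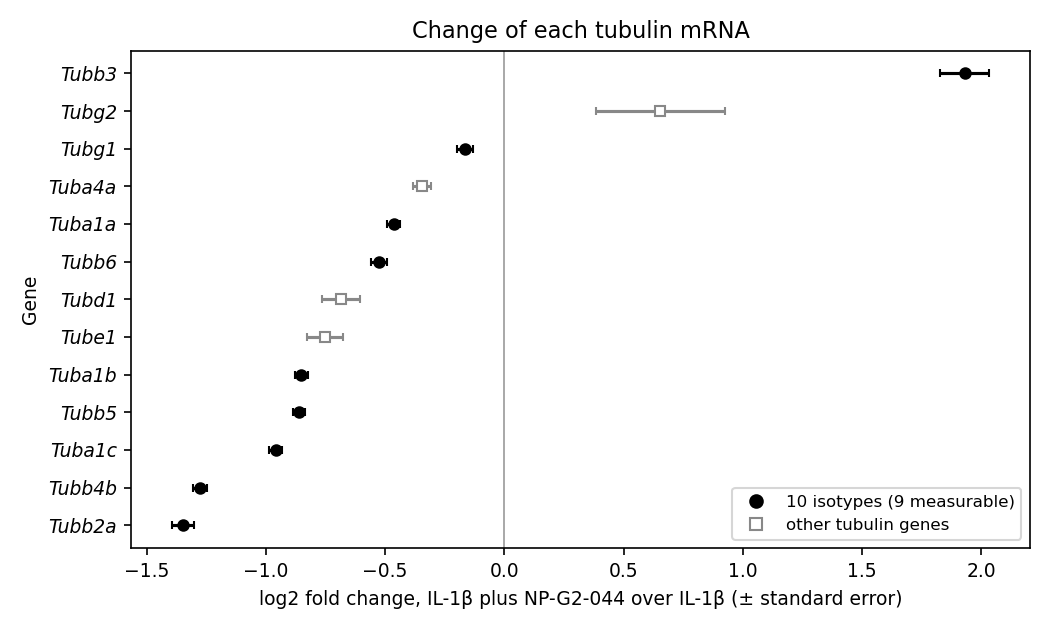
Log2 fold change, NP-G2-044 group over IL-1β group, for 9 isotypes (filled circles) and 4 other tubulin genes (open squares), with bars of 1 standard error. Tubb3 at 1.93 and Tubg2 at 0.65 lie right of 0, and the other 11 genes lie left of it, down to −1.35 for Tubb2a.

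The genes that work on or with tubulin were then read by role, from lists written by known function. These lists were chosen with earlier results of these data known, so their calls and p-values are no independent support. Over all tested genes, 40.2% were called higher and 39.8% lower in the same test, and 16.6% were past both cutoffs. The counts of every list below stand beside these shares, and nothing is read from the counts alone. For the γ-tubulin ring complex, which nucleates microtubules, 10 genes were tested, of which 2 rose, 7 fell and 1 did not pass the test. None was past both cutoffs, and the median log2 fold change was −0.20. That is near the −0.16 of Tubg1 itself.

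For tubulin folding, by the chaperonin CCT, prefoldin and the tubulin cofactors, 11 of 21 genes rose, 5 fell and 5 did not pass the test, with a median of 0.14. The 3 highest were the cofactor genes Tbce, Tbcel and Tbcd, named here after their values were seen, at log2 fold changes of 0.69, 0.67 and 0.49. None was past both cutoffs, and Tbce held 22.1 TPM against 35.3 TPM. The median of the folding genes lay on the other side of 0 from that of the isotypes, a difference that was not tested.

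The genes known to act in tubulin mRNA autoregulation gave no call. Ttc5, whose product recognizes the nascent tubulin chain, had 31.8 ± 2.33 TPM with IL-1β and 32.1 ± 0.424 TPM with NP-G2-044 (SD, n = 3), or 0.02 on the log2 scale (standard error 0.0564, adjusted p = 0.694 in edgeR's test). Scaper and Cnot11, which act with it, had log2 fold changes of 0.0035 and −0.01 (adjusted p = 0.956 and 0.811 in edgeR's test). These are mRNA levels, and the activity of the factors was not measured.

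Of the enzymes that modify tubulin after it is made, 20 were tested, of which 8 rose, 11 fell and 1 did not pass the test, with a median of −0.17. Ttll11, a polyglutamylase gene of low level, was the 1 gene past both cutoffs, at 0.517 TPM against 1.66 TPM (log2 fold change 1.71, adjusted p = 8.75e-10 in edgeR's test). Ttl, which adds the last tyrosine back to α-tubulin, rose by 0.21 on the log2 scale (adjusted p = 0.000156 in edgeR's test). Among the others, chosen after their values were seen, Hdac6 and Sirt2 both code for enzymes that remove acetyl groups from α-tubulin, and their log2 fold changes were −0.85 and 0.89.

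Of the proteins that stabilize microtubules or bind their ends, 19 were tested, of which 6 rose, 10 fell and 3 did not pass the test, with a median of −0.19. No gene of this list was past both cutoffs upward and 4 were downward. Map1a, Map1b and Map2, which code for microtubule-associated proteins best known from neurons, fell by 3.09, 1.92 and 1.57 on the log2 scale (adjusted p = 6.11e-27, 7.76e-24 and 3.83e-26 in edgeR's test). The fourth was Dclk1, named after its value was seen, at −1.42. Not all genes of the list that are known from neurons were lower: Map6 rose by 0.46 on the log2 scale (adjusted p = 2.6e-09 in edgeR's test), and Mapt, with few reads, stood at −0.0027 (adjusted p = 0.991 in edgeR's test). Map6 and Mapt are named after their values were seen.

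Of the proteins that destabilize or sever microtubules, 9 were tested, of which 3 rose and 6 fell, with a median of −0.37. Kif2c, a kinesin that takes microtubule ends apart during mitosis, fell from 71.3 ± 0.919 to 17.4 ± 1.27 TPM (SD, n = 3; log2 fold change −2.01, adjusted p = 1.56e-40 in edgeR's test). Fignl1 fell by 1.12 on the log2 scale (adjusted p = 1.76e-21 in edgeR's test). Stmn1, which codes for stathmin, a protein that binds free tubulin dimers, fell from 627 ± 13.3 to 424 ± 7.66 TPM (SD, n = 3; log2 fold change −0.54, standard error 0.0297, adjusted p = 5.62e-23 in edgeR's test).

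**Figure D5:**
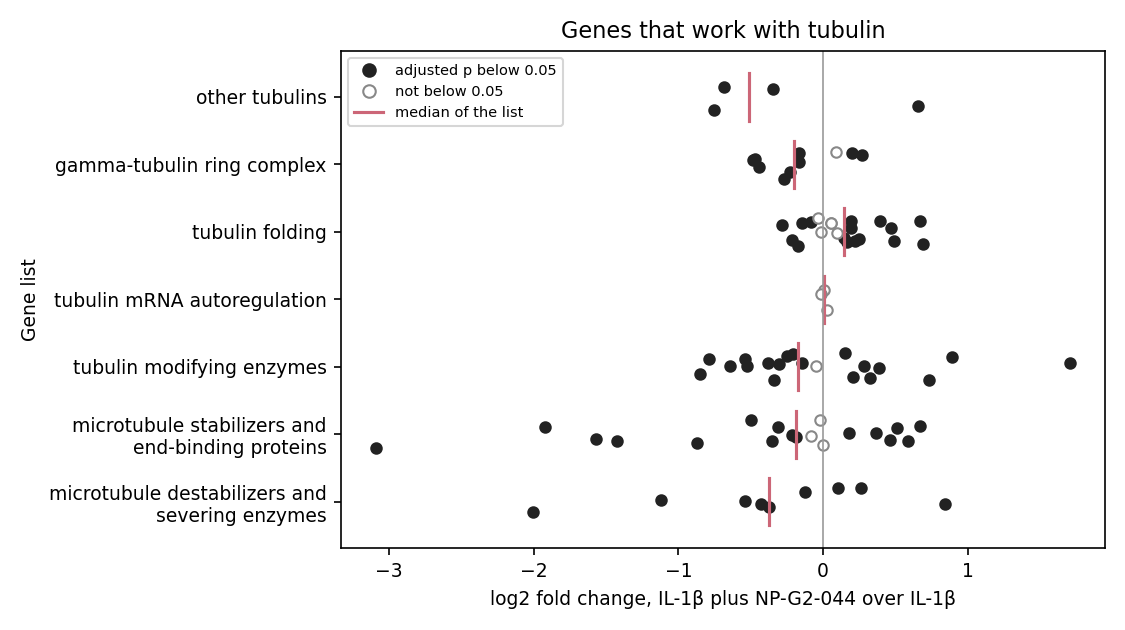
Log2 fold change, NP-G2-044 group over IL-1β group, for the genes of 7 lists, 1 point per tested gene, filled where the adjusted p was below 0.05 in edgeR's test, with a line at the median of each list. The medians of the folding and autoregulation lists lie at 0.14 and 0.00, and those of the other 5 lists lie below 0.

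Of the 86 genes tested in these 7 lists, 73 (84.9%) were called, against 80% of all 11983 tested genes, and 7 (8.14%) were past both cutoffs, against 16.6% of all tested genes. The median log2 fold change of the 9 measurable isotypes was −0.85, and the lowest median of the 7 lists was −0.51, for the other tubulin genes. The isotypes were chosen on values of this comparison, so nothing is read from this order. No test of this difference was made.

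The genes whose pattern was nearest to that of the summed isotypes were sought among 8251 genes with a mean of at least 10 TPM. Likeness was the root mean square difference, over the 6 libraries, between the log2 CPM of a gene and that of the summed isotypes, each centred on its mean. The 5 nearest were Smarca2, Chd3, Dnajc9, H2ax and Suv39h1, at differences of 0.0194, 0.0206, 0.0234, 0.0237 and 0.0248. Their log2 fold changes ran from −0.82 to −0.78. Over 6 libraries in 2 groups, this likeness is mostly that of the difference between the groups.

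Depth was 16615831 to 16878162 reads per IL-1β library and 17529836 to 17735850 per library of the inhibitor group, with 14155 to 14383 genes seen per library, and none stood apart from its group. Markers of other cell types were read as lists. Of 12 chondrocyte markers, 8 were analysed, their sum was 11.75 to 12.65 TPM against 15.2 to 15.55 TPM, Matn1 had no read and Col2a1 had 38 reads in all 6 libraries together. Sox9 carries the higher chondrocyte sum, at a mean of 6.44 against 11.4 TPM, and Col11a2, Col2a1 and Chad stood lower with the inhibitor. The sum of 8 fibroblast markers was 7912 to 8115 TPM against 2752 to 2875 TPM, with Thy1 at 0. S100a4 carries most of that difference, at a mean of 4313 against 730.4 TPM, and Fn1 and Pdgfra stood higher with the inhibitor. Macrophage markers summed to 11.3 to 14.4 against 124 to 135 TPM, nearly all Cd68, with Ptprc at 0, and endothelial markers to at most 0.55 TPM. The part of these differences in the tubulin values was not tested.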

How the data were processed

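RNA was sequenced from ATDC5 cells (per the labels), 3 libraries with IL-1β alone and 3 with NP-G2-044 added. The deposited table holds expected counts, TPM and FPKM per gene and library. The authors' processing notes name cutadapt, HISAT2 2.0, StringTie and mm10, the same assembly as GRCm38. The annotation and the use of strand: not given in the sources used here. The deposited expected counts are estimated read counts, not normalized, and 10.2% to 11.1% of the values per library were not whole. They were rounded to whole numbers before testing. The authors' TPM and FPKM were used as deposited, TPM for levels and shares and FPKM only as an alternative. The authors' group means were not used.

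Genes passed filterByExpr at a minimum count of 10, and TMM factors lay between 0.998 and 1.002. The main test was edgeR 4.0.16 in R 4.3.3 by quasi-likelihood (robust glmQLFit, then glmQLFTest), with group as the only term and Benjamini-Hochberg adjustment over 11983 genes. A call is an adjusted p below 0.05, and the cutoffs of the study add a log2 fold change above 1 in size. These steps were also run on simulated data in which few genes differed, unlike here, so that run gives no check of the share of genes called. The isotypes and the lists of other genes were chosen with earlier results of these data known. Named genes were all isotypes and other tubulin genes, Ttc5, Ttl and Stmn1, the 3 largest rises and 3 largest falls past both cutoffs in each list, and the 5 genes nearest in pattern. Any other gene was named after its values were seen.

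The methods state independent biological replicates for the study's experiments in general, and the sample labels give replicate numbers and no culture. P-values measure the spread between these samples, which was small: the biological coefficient of variation was 2.33%. Depth was 16615831 to 17735850 reads per library. The floor for a count of 0 is 3 reads and covers counting error only. The alternatives were DESeq2 size factors, library size alone, DESeq2 1.42.0, limma-voom and limma 3.58.1 on log2(TPM + 1), no filter, a filter of 10 CPM in 3 libraries, a replicate block, each library left out, summed paralogs, CPM or FPKM in place of TPM, and shares of reads or within a family. Sequence comparisons used 1 GENCODE vM21 transcript per gene.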

Additional observations from a re-analysis of the deposited data

How the results depend on the processing

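The direction of each of the 9 measurable isotypes was the same under every alternative run, with log2 fold changes of 1.71 to 1.98 for Tubb3, −1.37 to −1.32 for Tubb2a, −1.31 to −1.26 for Tubb4b, −0.89 to −0.85 for Tubb5, −0.55 to −0.51 for Tubb6 and −0.21 to −0.13 for Tubg1. Those of Tuba1a (−0.78 to −0.44), Tuba1b (−0.88 to −0.78) and Tuba1c (−0.99 to −0.78) reach −0.78 where the 3 genes are summed. The summed tubulin level moved from −0.83 to −0.81 on the log2 scale with CPM and to −0.80 with FPKM. The summed gains in share moved from 6.92 to 6.00 with shares of summed reads and to 6.21 within the α-tubulins. With each library left out the total ran from −0.84 to −0.83, the α to β ratio between the groups from 1.11 to 1.14, and the summed gains from 6.72 to 7.16. The genes past both cutoffs went from 776 higher and 1211 lower to 484 and 680 with at least 10 CPM in at least 3 libraries, a filter that leaves fewer genes to test, and to 514 and 802 with limma on log2(TPM + 1), where the cause was not tested.

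Same-numbered libraries of the 2 groups did not deviate together (r = −0.0934, −0.0236 and 0.0259 over 11983 genes). The deviations within a group were small, so these values cannot decide whether same-numbered cultures were paired. With a replicate block 9498 genes were called against 9584, and 73 genes of the lists against 73. Depth limits Tubb2b, the 6 other tubulin genes with 0 to 4 reads, Tubg2 and Tubb3 most, and shared sequence limits the single α-tubulin values.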
